A study of Daphnia magna with 15 samples.

Results

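Etoposide was compared with the unexposed set named control A in neonates of Daphnia magna, a water flea, taken whole. The comparison took the 3 etoposide libraries and the 3 control A libraries, 6 of the 15 libraries of the series, by the treatment and the set named in the sample titles. Animals were a laboratory strain, 48 to 72 h old, and 20 to 25 of them shared 25 mL of medium for 24 h without food. The etoposide group received 300 ng/L of the drug, and control A received the same medium with no drug. The other groups used beside them, with 3 libraries each, were imatinib at 2000 ng/L, cisplatin at 10 ng/L and the unexposed control B, under the same conditions. Libraries were made from polyadenylated RNA of whole animals, so less RNA in each cell and fewer cells of a type cannot be told apart. Which drug each of the unexposed sets A and B was meant for is not stated in the labels, nor whether replicates came from separate vessels, so the p-values rest on library-to-library spread, which may be technical.

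Etoposide is a topoisomerase II poison. The enzyme passes one DNA duplex through a break in another to untangle chromosomes, and the drug holds it on the cut DNA, so that a break is left behind. In mammalian cells such breaks are known to set off the DNA damage response and to be most harmful to cells that are copying their DNA. Daphnia magna is a freshwater crustacean that is widely used to test the toxicity of water.

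Each value is an FPKM, the fragments of a transcript scaled to transcript length and library size, added up here for all transcripts of a locus. Identifiers come from a transcript assembly and the files do not pair them with names; 0 were found among the 28335 genes of a RefSeq table, so functions, and markers of cell types, could not be looked up here. Loci are therefore described by position on the scaffolds of the deposited table, by structure and by level, and only a few are given by identifier. Of 18877 loci, 18098 averaged 1 FPKM or more across all 15 libraries and entered the test.

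The 6 libraries did not fall cleanly into their groups. Control A 3 lay nearer to etoposide 1 and etoposide 2, at a median absolute difference of 0.337 and 0.304 on the log2(FPKM + 1) scale, than to control A 2 (0.355) or control A 1 (0.472). The widest distance was that between control A 2 and etoposide 3, at 0.707. Control A 1 listed 1014 of the tested loci at 0, against 34 to 199 in the other 5 libraries. The steps between low FPKM values placed its depth at about 30.8% of that of etoposide 2, against 74.7% to 94.6% for the other 4. By the next most frequent step, control A 1 stood at 15.4%, control A 3 at 43.5% and etoposide 3 at 149%, so these readings are rough, and absolute depth is unknown. The median SD within a group was 0.384 in control A and 0.29 in etoposide, wider than in imatinib (0.226), control B (0.16) and cisplatin (0.152).

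**Figure D1:**
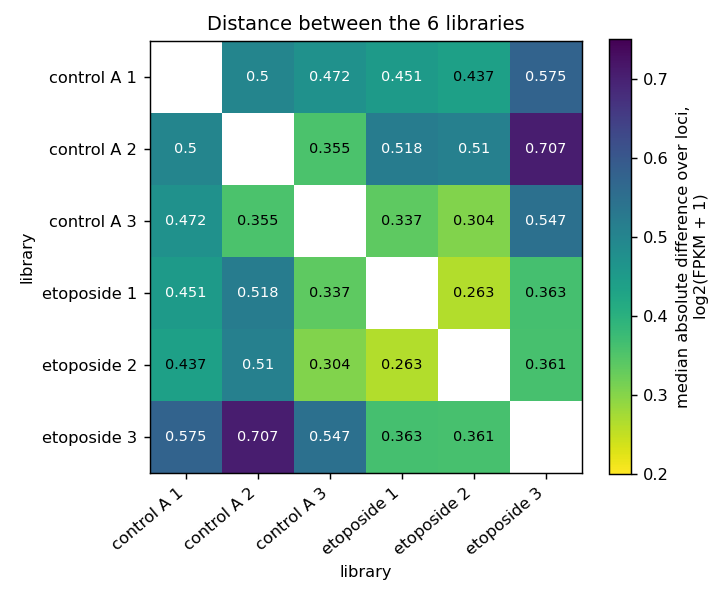
Median absolute difference in log2(FPKM + 1) over the 18098 tested loci for each pair of the 6 libraries, with darker cells for larger differences. Control A 3 and etoposide 2 differ by 0.304, and control A 2 and etoposide 3 by 0.707.

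With etoposide, 1381 loci were higher and 1416 were lower than in control A, 7.63% and 7.82% of the loci tested or 15.5% together (limma, adjusted p under 0.05). These counts, and the standard errors below, rest on 1 spread per locus shared by all groups, although control A and etoposide varied most. On simulated data with unequal spreads this fit made more false calls than its threshold allows. With only the 6 libraries fitted, 1 locus passed (limma, adjusted p under 0.05). The median rise was 1.75-fold and the median fall 1.89-fold, while the median of all loci tested was 0.02 on the log2 scale. Of the loci that rose, 461 did so by at least 2-fold and 55 by at least 4-fold. Of those that fell, 611 did so by at least 2-fold and 43 by at least 4-fold. The 3 etoposide values lay wholly outside the 3 control A values for 2594 of the 2797 called loci, and for 25.3% of all loci tested. Folds were computed on log2(FPKM + 1) and are too small for low loci.

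Without control A 1, 3993 loci passed, 1922 higher and 2071 lower, or 22.1% of those tested (limma). Of the 2797 loci, 2268 were among them in the same direction, and 0 of the 2797 changed sign. The 2797 were chosen on these same libraries. All 1381 rises and 1416 falls also kept their sign without control A 2 and without etoposide 3, so this does not support the calls. The median differences of the 2797 loci hardly moved, at 0.83 for the rises and -0.94 for the falls, against 0.81 and -0.91 with all libraries. Another 1725 loci passed only without control A 1, and 529 only with it. After median centring the split without control A 1 was 2530 higher and 1691 lower, so the balance of rises and falls there moved with the scaling.

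Nearly all calls were lost without control A 2 or without etoposide 3, the most distant pair. Without control A 2, 11 loci passed, and without etoposide 3, 7 did (limma, with 4377 and 4032 loci at an unadjusted p under 0.05). Over the 1381 loci that rose, the median level was 13.1, 9.91 and 15.9 FPKM in control A 1, 2 and 3 and 23.7, 21.6 and 28.4 FPKM in etoposide 1, 2 and 3. Over the 1416 that fell it was 19.4, 25.9 and 18.6 FPKM in control A and 11.8, 12.2 and 7.36 FPKM in etoposide. Etoposide 3 was the etoposide library farthest from control A for 81.6% of the rises and 83.9% of the falls, and control A 2 the control library farthest from etoposide for 68.1% and 67.5%. Without both libraries, the median differences of these same loci were 0.55 and -0.61. In a fit of the 6 libraries alone, or with a weight for each group, 1 locus passed (limma, 2999 and 3882 loci at an unadjusted p under 0.05). The 95% interval of the difference, from the fit of all libraries, lay within 2-fold for 52% of loci tested.

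**Figure D2:**
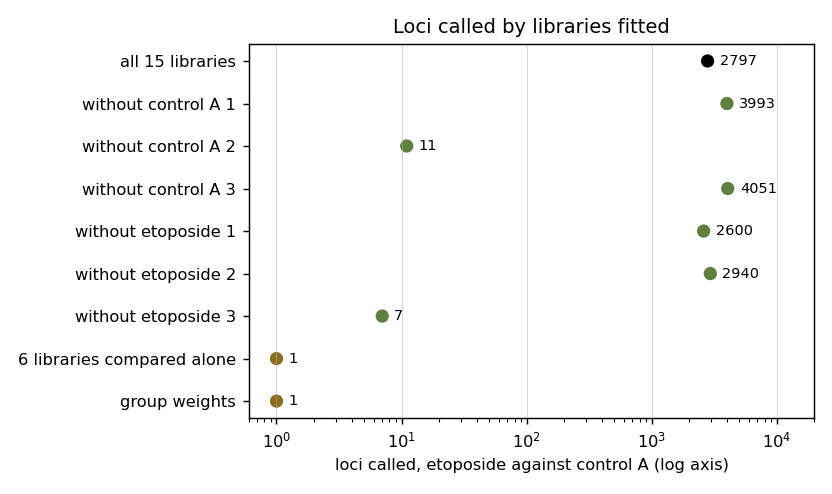
Number of loci called for etoposide against control A (limma, adjusted p under 0.05, log axis) with all 15 libraries fitted, with each of the 6 libraries left out, and in 2 fits that do not share 1 spread over all groups. Leaving out control A 2 or etoposide 3 gives 11 and 7 loci, and leaving out any other library gives 2600 to 4051.

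**Figure D3:**
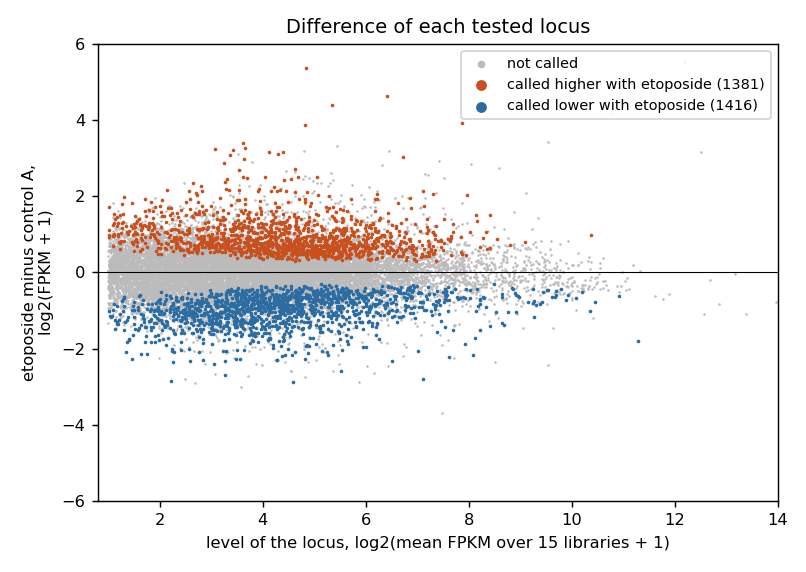
Difference between etoposide and control A in log2(FPKM + 1) for each tested locus, against its level over the 15 libraries on a log2 scale, with called loci in colour. The 1381 rises and 1416 falls spread over the whole range of levels, and 63 loci lie outside the axes.

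The 2 rises and 2 falls with the smallest p were taken among loci at least 300 bp long. Their groups had to show no overlap, and they had to pass without control A 1. All also passed in every other fit that left out 1 library (limma, adjusted p from 0.001 to 0.0461). Of the 2797 called loci, 6 passed in all 6 fits that left out 1 library. XLOC_016919 (scaffold02982, 52881 to 54644) measured 29.79, 24.26 and 30.12 FPKM in control A and 50.83, 60.75 and 74.4 FPKM with etoposide. Its lowest etoposide library lay well above its highest control A library. The difference was 1.11 on the log2 scale (SE 0.136; limma, adjusted p = 0.00936, or 0.0105 without control A 1).

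XLOC_009673 (scaffold01732, 36195 to 37063) measured 5.79, 6.651 and 7.592 FPKM in control A and 17.14, 14.5 and 21.49 FPKM with etoposide, 1.27 higher on the log2 scale (SE 0.157; limma, adjusted p = 0.00936). Here too the groups did not overlap, as the choice required. The other unexposed set did not share the low level of control A, with 19.8 ± 2.82 FPKM (SD, n = 3) in control B, and etoposide lay at -0.16 on the log2 scale against it (limma, adjusted p = 0.488). For XLOC_016919 control B stood between the groups, at 42.8 ± 3.58 FPKM (SD, n = 3).

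XLOC_004708 (scaffold01117, 16768 to 22940) was the clearest fall at a high level, with 154.9, 190.2 and 136.9 FPKM in control A and 71.5, 77.5 and 59.54 FPKM with etoposide, and a log2 difference of -1.19 (SE 0.146; limma, adjusted p = 0.00936). XLOC_007968 (scaffold01517, 14201 to 19304) measured 15.95, 17.34 and 14.16 FPKM in control A and 7.18, 6.261 and 5.053 FPKM with etoposide, a log2 difference of -1.24 (SE 0.152; limma, adjusted p = 0.00936). For both, control B lay with control A, at 138 ± 7.7 and 13.8 ± 1.27 FPKM (SD, n = 3). With imatinib against the same control A libraries, all 4 loci moved the same way as with etoposide. In the order given, the log2 differences were 0.80, 0.83, -0.65 and -0.98 (limma, adjusted p from 0.0108 to 0.0228). The 4 loci were chosen for their gap from these control A libraries, so the shared direction is not independent of the choice. For imatinib against control B they were 0.21, -0.60, -0.45 and -0.79 (limma, adjusted p = 0.287, 0.0168, 0.0426 and 0.00376). There XLOC_016919 was not called, and XLOC_009673 was called lower, against its rise with etoposide. With only the 6 libraries fitted, none of these 4 loci passed (limma, adjusted p = 0.285 in all cases). None passed with group weights (limma, adjusted p = 0.098 in all cases) and none without both control A 2 and etoposide 3 (limma, adjusted p from 0.104 to 0.106).

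**Figure D4:**
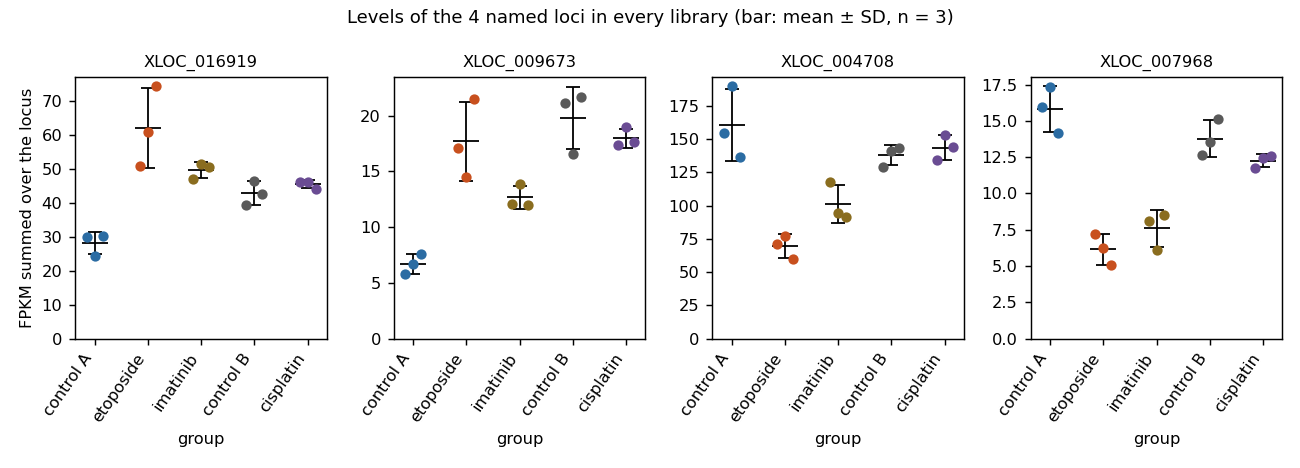
FPKM of XLOC_016919, XLOC_009673, XLOC_004708 and XLOC_007968 in all 15 libraries, 1 point for each library, with bars at the mean ± SD of each group (n = 3). Etoposide and control A do not overlap in any panel, which was a condition of the choice. For XLOC_009673 control B, at 19.8 FPKM, lies with etoposide.

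The single locus that passed in the fit of the 6 libraries alone was XLOC_017486 (scaffold03167, 2226 to 2386), which was named after its values had been seen. It was listed at 0 in all 3 control A libraries and measured 52.01, 26.77 and 46.74 FPKM with etoposide (limma, adjusted p = 0.0143). It also measured 31.95, 44.35 and 59.54 FPKM in control B, so the other unexposed set was not at 0. With imatinib it measured 22.49 to 25.24 FPKM and with cisplatin 16.54 to 44.42 FPKM. It spans 160 bp, and tested loci under 300 bp had a median SE of 0.828 on the log2 scale against 0.245 over all loci.

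The same contrast ran through the rises and the falls as sets. The 1381 loci that rose had a median log2 difference of -0.62 between control A and control B and of 0.20 between etoposide and control B. The 1416 loci that fell had a median of -0.01 between control A and control B and of -0.90 between etoposide and control B. All 3 comparisons share libraries, so these values stand side by side and do not support each other. By these values as scaled, the control A level was low against both etoposide and control B at the loci that rose. At the loci that fell, the etoposide level was low against both unexposed sets. Over all loci tested, the medians were -0.24 between control A and control B and -0.18 between etoposide and control B, and they depend on how the libraries are scaled. Set against these medians, etoposide also lay high at the rises and control A also lay high at the falls.

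Imatinib against control B uses no etoposide or control A library. The loci were chosen, though, with 1 spread per locus shared by all 15 libraries, and the same spread decides the calls here. The shares called are therefore not independent of the choice. In imatinib against control B, the loci that fell with etoposide had a median log2 difference of -0.52, with 34.5% called lower and 0.565% higher. Over all loci tested the median was -0.21, with 16.9% lower and 6.29% higher (limma, adjusted p under 0.05). The loci that rose with etoposide had a median of 0.03, with 9.49% called higher and 5.65% lower. For cisplatin against control B the medians were 0.02 for the falls and 0.00 for the rises, and 0.01 over all loci, with 0 loci called. The unexposed sets differed from each other about as often as imatinib did from control B. In control A against control B, 16.9% of all loci tested were called lower and 6.49% higher, with a median of -0.24 (limma, adjusted p under 0.05).

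Falls lay side by side on the scaffolds. Of the 1393 loci that fell and had a tested neighbour, 34.6% had a next locus that also fell, against 13.5% of all tested loci with such a neighbour. For rises the shares were 15.4% and 12.8%, with a wider gap without control A 1 (24% and 17.7%), control A 3 (26.9% and 20.6%) or etoposide 1 (17.6% and 11.5%) and none without etoposide 2 (12.7% in both). The excess for falls held for neighbours less than 1000 bp away, where 24.9% of the neighbours of a fall also fell against 9.66% of all neighbours, and for those over 5000 bp away, at 16.2% against 7.98%. Without control A 1 the shares for falls were 41.1% and 19.1%, with quantile-normalized values 36.3% and 12.9%, and with median-centred values 33.3% and 11.8%. Neighbouring loci of an assembly can be pieces of 1 gene, and how often that was so was not tested.

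In 11 places at least 4 tested loci in a row fell, on 10 scaffolds and with 45 loci in all, and in 0 places did 4 in a row rise. Without control A 1 there were 30 such runs of falls and 4 of rises, and without control A 3 there were 18 and 3. Without etoposide 1 the counts were 8 and 3, and with median-centred values 10 and 1. The 45 loci fell by a median of 1.32 on the log2 scale, from 1.3-fold to 6.94-fold. The groups did not overlap at 44 of them, as at 92.7% of all called loci. None of the 45 passed without control A 2 or without etoposide 3 (limma, a count of 0 in each, with all 45 at an unadjusted p under 0.05 in each), and their median difference was then -1.04 and -1.07. All 1416 loci that fell had an unadjusted p under 0.05 in both fits (limma), so this does not set the 45 apart. Imatinib against control B uses no etoposide or control A library, but its calls rest on the same shared spread. There, the 45 loci had a median log2 difference of -0.70, from -1.35 to -0.34, and 15 of 45 were called lower. Over all loci tested the median was -0.21, with 16.9% called lower. Of all the loci that fell, 34.5% were called lower.

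Among the 178 scaffolds with at least 20 tested loci, scaffold02101 had the highest share of falls and was singled out after its values were seen. Of its 24 tested loci, 12 fell (50%) and 0 rose, with a median fall of 3.26-fold and a range from 1.47-fold to 4.85-fold. Between positions 61765 and 138460, 8 of 9 tested loci fell, and the remaining one, at 72194 to 90832, shares its interval with a locus that fell. The 12 loci differed widely in level, from 2.12 to 116 FPKM on average over the 15 libraries. All 12 also passed without control A 1.

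The locus at 67859 to 70426 measured 31.54, 65.92 and 31.2 FPKM in control A and 10.19, 12.75 and 4.625 FPKM with etoposide (log2 difference -2.11, SE 0.42; limma, adjusted p = 0.0179). The locus at 61765 to 67678 measured 9.649, 34.14 and 18.84 FPKM in control A and 3.369, 6.16 and 1.087 FPKM with etoposide (log2 difference -2.28, SE 0.562; limma, adjusted p = 0.0253). At both, control A 2 was the highest library and etoposide 3 the lowest. The most abundant of the 12, at 113554 to 121505, measured 114.6, 142.1 and 108 FPKM in control A and 80.32, 70.47 and 84.52 FPKM with etoposide (log2 difference -0.62, SE 0.125; limma, adjusted p = 0.0183). Its change was smaller, and etoposide 3 was the highest etoposide library there, although its call too was lost without that library.

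Over the 12 loci, control A 2 was the highest of the 6 libraries at 10 and etoposide 3 the lowest at 9. The median difference was -1.50 on the log2 scale without control A 2 and -1.38 without etoposide 3, where 0 of the 12 passed and all 12 had an unadjusted p under 0.05 (limma). All 1416 loci that fell had such a p in both fits, so this does not set the 12 apart. Without both libraries the median difference of the 12 was -1.17. Their median log2 difference between etoposide and control B was -1.36, and that between control A and control B 0.18. In imatinib against control B, all 12 lay below 0, with a median of -0.72 against -0.21 over all loci tested. There 3 of the 12 were called lower, against 16.9% of all loci tested and 34.5% of all the loci that fell.

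**Figure D5:**
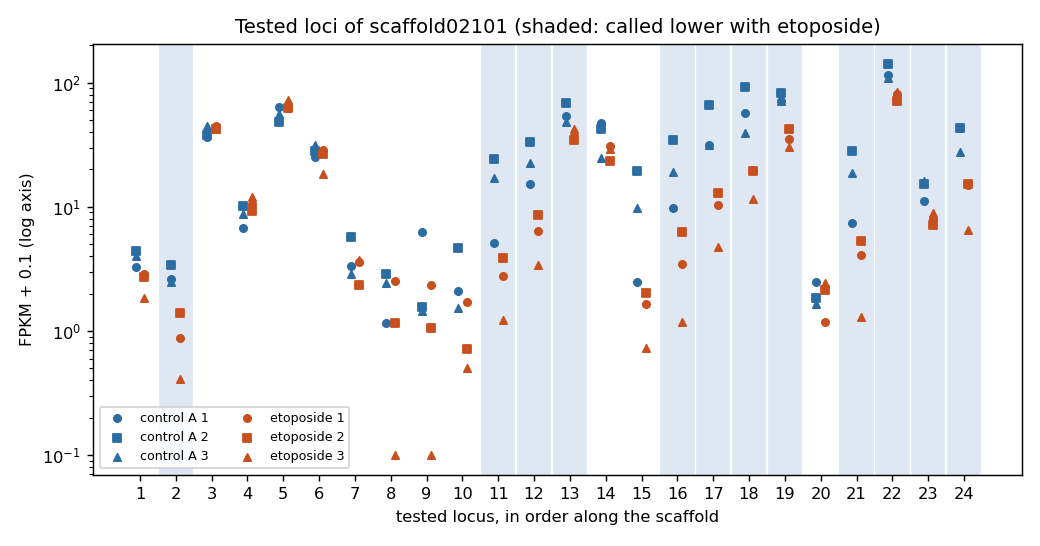
FPKM + 0.1 on a log axis of the 24 tested loci of scaffold02101, in order along the scaffold, in the 3 control A libraries (blue) and the 3 etoposide libraries (orange), with the 12 loci called lower shaded. At every shaded locus the 3 etoposide points lie below the 3 control A points, and most shaded loci stand in the second part of the scaffold.

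The run with the largest fall at a single locus lay on scaffold01912 between 46675 and 60475, and was also picked after its values were seen. Its most abundant locus, at 55902 to 60475, measured 736.9, 1199 and 772.1 FPKM in control A and 540.4, 431.6 and 250.1 FPKM with etoposide (log2 difference -1.18, SE 0.254; limma, adjusted p = 0.0203). The locus at 48678 to 54230 measured 100.5, 467.8 and 190.6 FPKM in control A and 54.8, 59.81 and 7.059 FPKM with etoposide (log2 difference -2.79, SE 0.712; limma, adjusted p = 0.0275). Again the groups did not overlap and control A 2 and etoposide 3 were the extremes. The other 2 loci of the run fell by 4.53-fold and 4.48-fold. At the loci at 55902 to 60475 and 48678 to 54230, control B lay between the means of the groups, with 661.5 ± 12.9 and 163.1 ± 40.4 FPKM (SD, n = 3). Imatinib lay near the etoposide means of 407.3 and 40.56 FPKM there, with 421.9 ± 44.75 and 71.78 ± 38.59 FPKM (SD, n = 3).

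Longer loci fell more often than they rose, and shorter loci rose more often. Of the 3087 tested loci with a span over 5000 bp, 210 rose and 325 fell (17.3% called). Of the 3240 from 300 to under 1000 bp, 258 rose and 169 fell (13.2%). The order of these splits was the same without control A 1 (316 and 418, then 329 and 246), with quantile-normalized values (211 and 294, then 263 and 170) and with median-centred values (207 and 274, then 280 and 150). Loci with over 5 transcripts showed 30 rises and 60 falls among 678 (13.3% called), or 56 and 83 without control A 1 (20.5%), where all loci tested gave 7.63% rises and 7.82% falls.

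Fewer calls were made at low levels. Of the 4524 least abundant loci 8.66% were called, and of the 4525 most abundant 19.4%. The standard error was wider for the former, at a median of 0.318 against 0.197 on the log2 scale. Without control A 1 the shares were 15.8% and 24.7%. At 801 loci control A 1 alone of the 6 libraries was listed at 0, and 44 of these were called. At 92 loci etoposide 3 alone was listed at 0, and 24 of these were called. Against these counts stand 15.5% of all loci tested, and the direction of such calls, rises for the former and falls for the latter, follows from which library is at 0.

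Changes in the use of transcripts within a locus were tested at 4981 loci with at least 2 transcripts of a mean of at least 1 FPKM. Of these, 209 (4.2%) differed between etoposide and control A (limma diffSplice, adjusted p under 0.05), and 202 did without control A 1, with 112 in both lists. The summed level was also called at 41 of the 209 loci, where 15.5% of all loci tested were called. Among tested loci with 2, 3 to 5 and over 5 transcripts the shares were 15.5%, 16.3% and 13.3%. The share among the 4981 loci themselves is not given here. Only 31 loci passed when the 6 libraries were fitted by themselves, 44 without etoposide 3 and 611 without control A 3. The test pools the spread over the transcripts of a locus, although FPKM of low transcripts vary more than those of abundant ones.

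The smallest p that also passed without control A 1 was at a locus with 5 transcripts on scaffold01708, from 49048 to 50549 (limma diffSplice, adjusted p = 1.01e-06, or 7.31e-06 with the 6 libraries alone). A transcript nearly missing from control A made up 0.0377%, 0.000535% and 0.464% of the locus in control A 1, 2 and 3 and 9.19%, 9.12% and 12% in etoposide 1, 2 and 3. A second transcript, nearly missing with etoposide, made up 10.8%, 6.95% and 8.56% in control A and 0.00358%, 0.755% and 0.00198% with etoposide. The locus as a whole overlapped between the groups, with 166.8, 108.1 and 97.66 FPKM in control A and 118.8, 112.4 and 126.5 FPKM with etoposide. Control B was again unlike control A for the first of these transcripts, which stood at 7.89%, 7.14% and 13.7% in control B 1, 2 and 3. The second transcript was mixed there, at 9.22e-05%, 7.5% and 0.00413%. With imatinib the first stood at 8%, 4.55% and 8.15% and the second at 3.49%, 3.1% and 0.0157%. With cisplatin the first stood at 12.6%, 11% and 9.7% and the second at 0.000704%, 0.00392% and 0.148%. Only control A nearly lacked the first.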

How the data were processed

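The authors deposited FPKM per assembled transcript for 15 libraries. Per the submitters' processing notes, the tools were Bowtie2 2.1, TopHat2 2.0, Cufflinks 2.2.1, Cuffdiff, Trim Galore and CASAVA 1.8.0; their settings, the genome build and any scaling across libraries are not stated in what was used here. Positions are printed as the table has them.

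Transcript FPKM were added up by locus. Loci averaging 1 FPKM or more were tested as log2(FPKM + 1) with limma (version 3.58.1, R 4.3.3; mean-variance trend, 5 group means, 1 spread per locus shared by all groups), Benjamini-Hochberg adjusted at 0.05. Transcript usage was tested with diffSplice of limma. Both were tested on simulated data. With unequal spreads built into those data, the fit with 1 shared spread made more false calls than its threshold allows, so fits of the 6 libraries alone and with weights stand beside it. On simulated transcripts diffSplice also made more false calls than its threshold allows. Positions were compared in Python 3.11.15, and steps between low FPKM were read at 909 loci. The named loci are the 2 rises and 2 falls with the smallest p under the conditions given with them. The members, lists and tests were chosen with earlier results of these data known. Fits without both control A 2 and etoposide 3 were added after seeing the data.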

Additional observations from a re-analysis of the deposited data

How the results depend on the processing

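The count of 2797 loci stayed within 1.5 times under both scalings, both other pseudocounts, all 4 other filters and without control A 1, control A 3, etoposide 1 or etoposide 2. Leaving out each library in turn gave 7 to 4051 loci, 4 to 2288 higher and 3 to 2071 lower. In the fit of the 6 libraries, the fit of 9 with imatinib, with group weights, with library weights and without both control A 2 and etoposide 3 (added after seeing the data), 1 locus passed, 1 higher and 0 lower, with 2999, 4246, 3882, 4124 and 2853 loci at an unadjusted p under 0.05 (limma). The single locus was XLOC_017486 in all 5. With control A 1 left out as well, the count of 3993 became 0, 1, 0 and 0 in the first 4 of these fits (limma, 3703, 5068, 4586 and 4117 at an unadjusted p under 0.05). Loci without overlap, 2323 higher and 2259 lower, numbered 2589 to 3983 and 2567 to 4232 with a library left out. Transcript usage was called at 31 loci in the fit of the 6 libraries and at 44 to 611 with a library left out.

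Replicate numbers are shared by the groups. Deviations of same-numbered libraries correlated across loci at -0.191, 0.0732 and -0.112, and the highest correlation, 0.284, was between control A 1 and etoposide 3. Deviations within a group sum to 0, which ties these correlations to each other. Whether same-numbered libraries share more than a number was not tested. With the replicate block, 4198 loci passed, 2161 higher, and usage was called at 356. The 4 named loci kept their call in 60 of 80 refits, and the other 20 were the 5 fits that left 1 locus. Their direction held in all 80. Choosing loci without overlap fixed that in advance wherever values were not rescaled, so it does not support the calls. Of 36 shares of loci called by span, number of transcripts or level, 32 stayed within 1.5 times. The cause of these differences was not tested. Loci at low levels had wider standard errors, and absolute depth is unknown.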
